A study of Mus musculus with 16 samples.

Results

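Gm11837 and 4933406J09Rik are 2 mouse genes annotated as antisense RNAs, transcripts read from the strand opposite to a protein-coding gene that they overlap. They were picked from 30141 genes with a count in 16 RNA-seq libraries of mouse bone marrow, because in earlier results of the same libraries their levels differed most clearly between azacitidine and vehicle. The rows were found by symbol, and both genes passed the filter on low counts. Their azacitidine changes are therefore given as a description, with no test.

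The RNA came from LSK cells, lineage-negative marrow cells with Sca1 and Kit on their surface, where blood-forming stem cells and the first progenitors are found. The 4 groups were R882H with azacitidine (5 libraries), R882H with NaCl (4), WT with azacitidine (3) and WT with NaCl (4). R882H cells carried mouse WT DNMT3A and a human DNMT3A R882H allele, knocked into the endogenous locus behind a stop cassette that Mx1-Cre removes. That Cre acts from an interferon-inducible promoter and is not limited to blood cells. Donors of both genotypes received poly(I:C) at 15 µg per g; a schedule of 400 µg is also mentioned, with no animals named for it. Their marrow was harvested 4 weeks later, mixed 1:1 with marrow of CD45.1 WT mice and transplanted into CD45.1 recipients. Recipients had azacitidine at 2.5 mg per kg or NaCl for 2 weeks, in blocks of 5 days with 2 days off. The labels say that donors were age-matched but give no age. They do not state whether donor cells were separated from competitor cells in the sort, nor whether each library was a separate animal, so every p-value measures only the spread between libraries.

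Azacitidine is a cytidine analogue that is built into RNA and DNA. In DNA it traps DNA methyltransferases, and daughter cells then carry less methylated cytosine, which lies mostly in CpG, a C followed by a G. Antisense RNAs are transcribed across the opposite strand of another gene. Some of them, such as Airn and Kcnq1ot1 at imprinted loci, are themselves controlled by DNA methylation and silence genes near them. No function of Gm11837 or of 4933406J09Rik is given in the files or the annotation used here.

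Gm11837 (ENSMUSG00000086587) lies on the plus strand of chromosome 4, from 14929908 to 14953030 in GRCm38, per GENCODE M21. It spans 23123 bases and has 3 annotated transcripts of 6 exons each. Its last exon lies wholly within an exon of Necab1, a neuronal calcium-binding protein gene on the minus strand, so 410 of its 1012 exonic bases are shared. Exons 3 to 5, which all 3 transcripts contain and which touch no Necab1 exon, are printed because reads there can come from no other annotated exon. CpG sites are in capitals and there is 1 in these 3 exons.
Gm11837 exon 3, chr4:14938484-14938557, plus strand: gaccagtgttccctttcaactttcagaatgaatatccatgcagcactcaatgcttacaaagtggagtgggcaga
Gm11837 exon 4, chr4:14942200-14942275, plus strand: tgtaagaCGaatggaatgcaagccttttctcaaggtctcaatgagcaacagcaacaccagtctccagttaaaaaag
Gm11837 exon 5, chr4:14947439-14947545, plus strand: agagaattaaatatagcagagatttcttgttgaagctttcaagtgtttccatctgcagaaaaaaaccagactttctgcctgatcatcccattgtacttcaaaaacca

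The CpG sites of Gm11837 were concentrated at its start. The first exon of transcript Gm11837-201 held 21 CpG in 110 bases and that of Gm11837-203 held 16 in 99, against 5 in 132 for Gm11837-202, which begins further upstream. All 3 transcripts contain the same longest open reading frame, 119 codons from ATG to stop, and the printed exons lie inside it. GENCODE M21 classes the gene as antisense, whereas the RefSeq table on GRCm38.p6 lists it as protein-coding, so whether its RNA is non-coding is not settled by the annotations.

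4933406J09Rik (ENSMUSG00000107666) lies on the minus strand of chromosome 6, from 134308951 to 134403415. It spans 94465 bases and has 1 annotated transcript of 9 exons. RefSeq lists it as a lncRNA, and its longest open reading frame has 53 codons. Bcl2l14, which encodes a protein of the BCL2 family and is also known as Bcl-G, is read from the plus strand and starts inside 4933406J09Rik, 7097 bases downstream of its start, to run back across it. The pair share 577 of the 1505 exonic bases of 4933406J09Rik, all in its exons 1 and 2. Exons 3 to 9 overlap no other annotated exon. The promoter window of 4933406J09Rik, from 250 bases before to 50 after the start, is printed with the 250 bases before the RefSeq start of Bcl2l14 and with exons 4 and 5 of 4933406J09Rik. Promoters are from RefSeq on GRCm38.p6 and exons from GENCODE M21, with CpG in capitals.
4933406J09Rik promoter, chr6:134403366-134403665, minus strand: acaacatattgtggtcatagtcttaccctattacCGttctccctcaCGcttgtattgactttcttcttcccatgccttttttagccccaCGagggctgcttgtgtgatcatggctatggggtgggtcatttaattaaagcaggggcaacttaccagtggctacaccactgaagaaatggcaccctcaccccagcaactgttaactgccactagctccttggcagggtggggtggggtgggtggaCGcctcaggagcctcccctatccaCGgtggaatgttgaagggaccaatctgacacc
Bcl2l14 upstream, chr6:134396079-134396328, plus strand: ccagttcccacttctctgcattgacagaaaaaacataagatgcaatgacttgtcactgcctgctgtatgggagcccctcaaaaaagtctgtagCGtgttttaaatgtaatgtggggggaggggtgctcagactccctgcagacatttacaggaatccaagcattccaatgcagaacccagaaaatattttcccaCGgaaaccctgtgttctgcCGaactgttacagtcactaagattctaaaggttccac
4933406J09Rik exon 4, chr6:134319788-134319937, minus strand: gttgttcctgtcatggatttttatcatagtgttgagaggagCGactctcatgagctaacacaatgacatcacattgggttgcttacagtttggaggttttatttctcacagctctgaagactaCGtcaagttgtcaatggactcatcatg
4933406J09Rik exon 5, chr6:134319183-134319316, minus strand: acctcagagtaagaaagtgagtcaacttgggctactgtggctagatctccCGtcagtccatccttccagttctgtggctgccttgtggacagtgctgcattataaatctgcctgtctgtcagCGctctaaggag

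The promoter window of 4933406J09Rik held 5 CpG in 300 bases, an observed over expected ratio of 0.24, with 52.3% G and C. Of the 32851 promoter windows in the table, 56.4% held more CpG, and the median was 7. The 300-base window at the same Bcl2l14 start held 3 CpG, and a second Bcl2l14 window, chr6:134414178-134414477, held 6. On either strand, the 4933406J09Rik window contained TGTGGT, a RUNX-type sequence, at 1 position and CCAAT at 1. These letters occurred in 16.8% and 37.4% of all windows. It contained no TATA box (TATAAA, in 13.6% of all windows), E-box (CACGTG, in 7.15%), CRE (TGACGTCA, in 1.79%) or GATA-type sequence (AGATAA, in 11.2%). Nor did it contain an ETS-type sequence (CCGGAAG, in 8.86%), a PU.1-type sequence (GAGGAAGT, in 3.20%) or the interferon response element searched (in 3.44%). The second Bcl2l14 window contained the PU.1-type and the GATA-type sequence at 1 position each, and the first window contained neither. These are matches of letters and not binding sites.

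**Figure D1:**
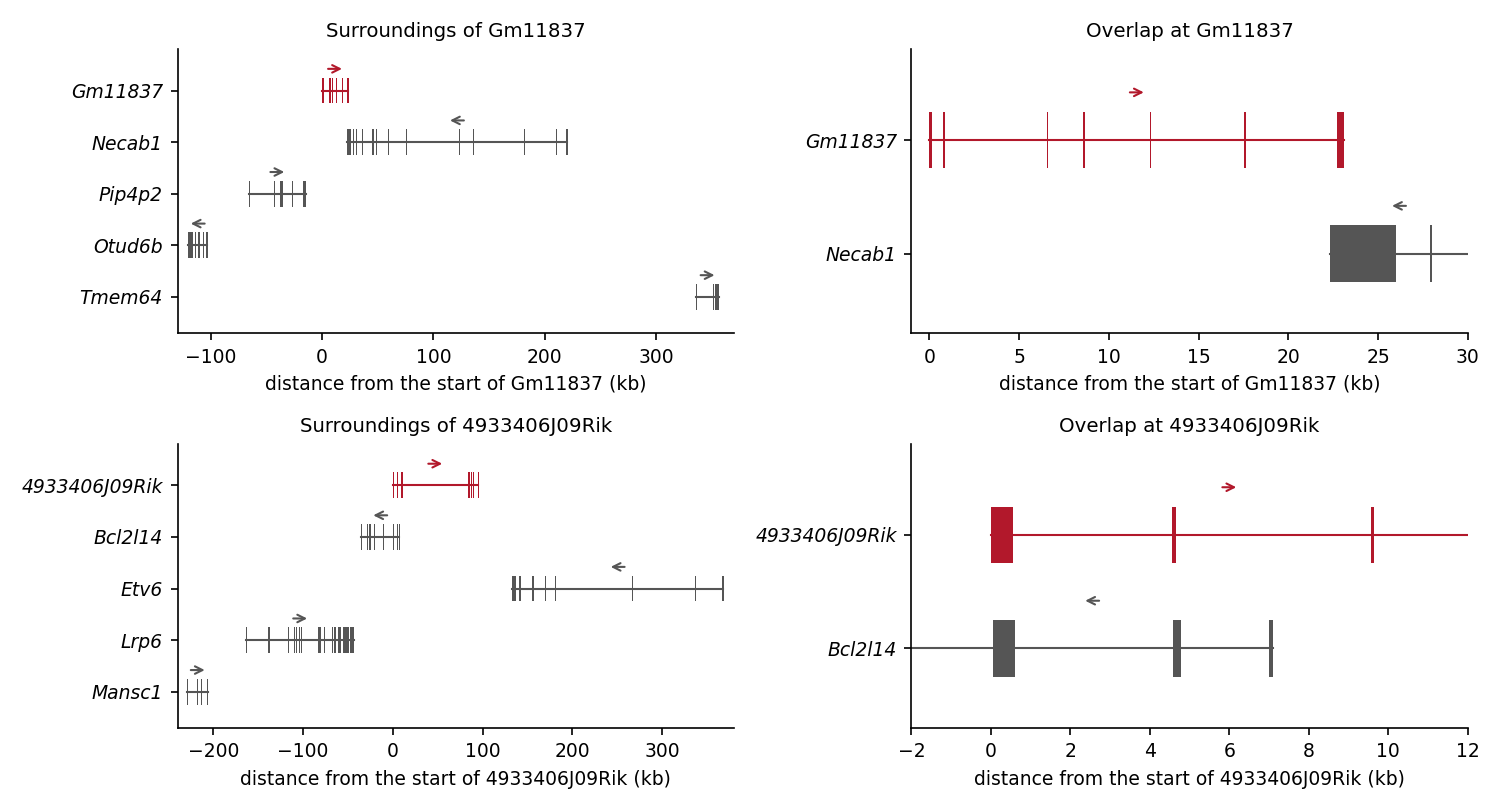
Maps of both loci along the distance from each antisense RNA's start in its direction of transcription (kb), with surroundings on the left and the overlap on the right. Bars are exons, lines are gene spans, arrows give the direction of transcription, and the antisense RNA is red. Gm11837 ends inside Necab1 (410 shared exonic bases), while Bcl2l14 starts inside 4933406J09Rik (577 shared exonic bases).

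Library totals ran from 35860445 to 56012766 counts, repeat families took 2.97 to 10.1% of them, and 18341 genes were tested. Along principal component 1 (26.4% of the variance), libraries numbered 1 and 2 lay above those numbered 3 or more in R882H with NaCl, WT with azacitidine and WT with NaCl. On component 2, R882H with NaCl replicate 1 stood apart. What a replicate number means is not stated, so values within each set are given beside the results. All 10 LSK markers were detected in every group. Levels of mouse Dnmt3a, counted by mouse gene, averaged 90.5 to 105 CPM in the 4 groups, which does not check the human allele.

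Both antisense RNAs were low in abundance. CPM are counts scaled to the TMM-normalised size of each library. Gm11837 averaged 1.70 CPM over the 16 libraries, above 30.2% of the tested genes, and 4933406J09Rik averaged 1.41 CPM, above 28.4%. Per length, in the deposited FPKM, Gm11837 averaged 0.684 in R882H with azacitidine, 3.34 in R882H with NaCl, 0.565 in WT with azacitidine and 1.77 in WT with NaCl. 4933406J09Rik averaged 1.44 FPKM in R882H with azacitidine, 0.295 in R882H with NaCl, 1.64 in WT with azacitidine and 0.257 in WT with NaCl. So with azacitidine the FPKM level of 4933406J09Rik stood above that of Gm11837, and with NaCl below it, in both genotypes.

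Gm11837 was lower with azacitidine. In R882H cells it stood at 0.767, 0.897, 0.518, 0.663 and 0.741 CPM in the treated libraries (22 to 49 counts), against 3.48, 5.01, 2.75 and 3.10 CPM in the NaCl libraries (115 to 195 counts). In WT cells it stood at 0.384, 0.433 and 1.00 CPM in the treated libraries (16 to 39 counts), against 1.69, 1.73, 1.54 and 2.55 CPM in the NaCl libraries (61 to 109 counts). Every treated library lay below every NaCl library of its genotype. WT with azacitidine replicate 3 was the highest treated library of all, and R882H with NaCl replicate 2 the highest control.

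The group means of Gm11837 were 0.717 ± 0.14 CPM (SD, n = 5) with azacitidine and 3.59 ± 0.993 (n = 4) with NaCl in R882H cells. They were 0.606 ± 0.343 (n = 3) with azacitidine and 1.88 ± 0.455 (n = 4) with NaCl in WT cells. On the log2 scale of the edgeR fit, the change was -2.32 (SE 0.32) in R882H, or 0.201 times the NaCl level, and -1.63 (SE 0.37) in WT, or 0.323 times. Without WT with azacitidine replicate 3 the WT change was -2.20. Among libraries numbered 1 and 2 the change was -2.34 in R882H and -2.08 in WT, and among those numbered 3 or more it was -2.20 in R882H and -1.04 in WT. The WT value of the second set rests on the single treated library numbered 3, which is the highest treated one.

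4933406J09Rik was higher with azacitidine. In R882H cells it stood at 1.39, 2.76, 3.06, 1.56 and 2.47 CPM in the treated libraries (65 to 151 counts), against 0.531, 0.257, 0.455 and 0.624 CPM in the NaCl libraries (10 to 30 counts). In WT cells it stood at 3.33, 2.71 and 1.85 CPM in the treated libraries (72 to 139 counts), against 0.305, 0.480, 0.532 and 0.304 CPM in the NaCl libraries (13 to 21 counts). Every treated library lay above every NaCl library of its genotype. The lowest treated library, R882H with azacitidine replicate 1, and the highest control, R882H with NaCl replicate 4, came from the same genotype.

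The group means of 4933406J09Rik were 2.25 ± 0.74 CPM (SD, n = 5) with azacitidine and 0.467 ± 0.156 (n = 4) with NaCl in R882H cells. They were 2.63 ± 0.746 (n = 3) with azacitidine and 0.405 ± 0.118 (n = 4) with NaCl in WT cells. The log2 change was 2.26 (SE 0.36) in R882H, or 4.78 times the NaCl level, and 2.69 (SE 0.39) in WT, or 6.46 times. Among libraries numbered 1 and 2 it was 2.40 in R882H and 2.92 in WT, and among those numbered 3 or more 2.11 in R882H and 2.13 in WT. The direction was the same in both sets of libraries and in both genotypes. These are the libraries that chose the gene, so this sameness is a description and no support.

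**Figure D2:**
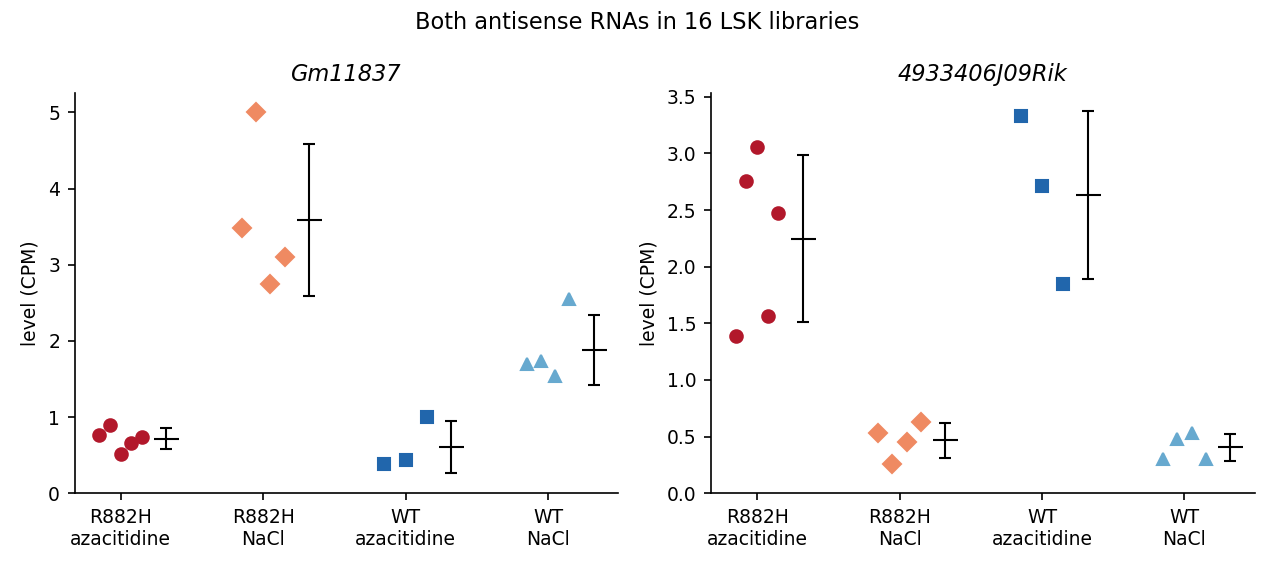
Level (CPM) of Gm11837 (left) and 4933406J09Rik (right) in each of the 16 libraries, by group, with the mean and SD in black. For Gm11837 the treated libraries lie between 0.384 and 1.00 CPM and the NaCl libraries between 1.54 and 5.01, while for 4933406J09Rik the treated libraries lie between 1.39 and 3.33 and the NaCl libraries between 0.257 and 0.624.

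Few genes of the whole table separated in this way. In both genotypes at once, 8 of 18341 genes (0.0436%) had every treated library below every control, and 31 (0.169%) had every treated library above. In R882H alone these counts were 89 lower (0.485%) and 199 higher (1.09%), and in WT alone 512 lower (2.79%) and 539 higher (2.94%). The members were chosen on this difference, so nothing is read from their place in those counts.

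The values that chose both genes were the adjusted p-values of edgeR's quasi-likelihood test, with a threshold of 0.05. For the azacitidine change averaged over genotypes it called 4 genes (0.0218%), among them 4933406J09Rik (log2 change 2.47, SE 0.27) and Gm11837 (-1.97, SE 0.25). When replicate numbers were blocked in the fit, the edgeR adjusted p was 0.0593 for Gm11837 and 0.0218 for 4933406J09Rik, and among libraries numbered 1 and 2 it was 0.0959 and 0.106, with 0 genes called. Just inside the threshold lay Cd200r3, an activating CD200 receptor gene of mast cells and basophils, at an edgeR adjusted p of 0.033. Just outside lay Mybpc3, a cardiac myosin-binding protein gene, at an edgeR adjusted p of 0.0572. In R882H alone 1 gene was called (0.00545%), Gm11837 at an edgeR adjusted p of 0.0307, and 4933406J09Rik was next at 0.0985. The edgeR adjusted p of Gm11837 in R882H was 0.0511 to 0.18 when any 1 of the 9 R882H libraries was left out. It was 0.275 with the replicate block and 0.111 in a fit to the 2 R882H groups. In WT alone edgeR called 0 genes (0%), with 1104 at an unadjusted p under 0.05. There 4933406J09Rik and Cd200r3 had the lowest adjusted p, both 0.0656. DESeq2 called more genes, 161 for the average, 88 in R882H and 46 in WT. Its adjusted p in R882H was 1.44e-09 for Gm11837 and 2.43e-06 for 4933406J09Rik, and in WT 0.0122 for Gm11837 and 3.08e-07 for 4933406J09Rik. These DESeq2 values come from the libraries that chose both genes, so they are no separate test of them.

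The choice did not use the difference between genotypes as such, although it used the same libraries. Gm11837 was also chosen on its change in R882H alone, so its comparisons between genotypes are not independent of the choice. With NaCl, Gm11837 was at 2.75 to 5.01 CPM in R882H and 1.54 to 2.55 CPM in WT, and the groups did not overlap, a pattern that 0.878% of tested genes showed. The log2 difference was 0.93 (SE 0.33, 95% interval 0.29 to 1.57) with an edgeR adjusted p of 0.797, so it was not called. edgeR called 1 gene (0.00545%) in that comparison. Among libraries numbered 1 and 2 the difference was 1.33, and among those numbered 3 or more 0.52.

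With azacitidine, the R882H and WT levels of Gm11837 overlapped. The log2 difference, R882H minus WT, was 0.24 (SE 0.35, interval -0.44 to 0.93, edgeR adjusted p = 0.796). edgeR called 1 gene (0.00545%) there as well. In order of level, Gm11837 was highest in R882H with NaCl, then in WT with NaCl, then in both azacitidine groups, which did not differ beyond their spread.

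4933406J09Rik overlapped between genotypes under either treatment. Its log2 difference, R882H minus WT, was -0.23 (SE 0.35, interval -0.92 to 0.47, edgeR adjusted p = 0.811) with azacitidine and 0.21 (SE 0.37, interval -0.52 to 0.93, edgeR adjusted p = 0.999) with NaCl. In order of level the azacitidine groups came first, WT above R882H by less than their spread, and the NaCl groups followed, R882H above WT by less than theirs.

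The azacitidine changes themselves were compared between genotypes through the interaction term, R882H change minus WT change, for which edgeR called 0 genes (0%), 1114 had an unadjusted p under 0.05, and DESeq2 called 12. For Gm11837 it was -0.68 (SE 0.48, interval -1.62 to 0.25, edgeR adjusted p = 0.765), so the change in R882H was not shown to be larger. The Gm11837 value is not independent of the choice, which also used R882H alone. For 4933406J09Rik the interaction was -0.43 (SE 0.51, interval -1.44 to 0.57, edgeR adjusted p = 0.835). These intervals still hold differences of more than 2-fold in the direction of the estimate.

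Markers of red cell precursors were also lower in sum with azacitidine in WT, and overlapped between treatments in R882H. The summed level of 7 erythroid markers (Hba-a1, Hbb-bt, Hbb-bs, Car1, Car2, Klf1 and Epor) was 1370 to 1720 CPM in R882H with azacitidine and 1670 to 9980 CPM in R882H with NaCl. It was 1040 to 1600 CPM in WT with azacitidine and 1850 to 2180 CPM in WT with NaCl. All 7 were detected in every group and edgeR called none of them. Car2, a carbonic anhydrase gene, had the highest mean of the 7 in every group, so the sum weighs it most. It averaged 1220 CPM in R882H with azacitidine, 2420 in R882H with NaCl, 972 in WT with azacitidine and 1590 in WT with NaCl. Of the 7, only Car2 had every treated library below every control in both genotypes, a pattern that 0.0436% of tested genes showed. Hba-a1, a haemoglobin gene, averaged 4.36 CPM in R882H with azacitidine, 78.1 in R882H with NaCl, 12.6 in WT with azacitidine and 28.2 in WT with NaCl. All 7 had a negative log2 change in R882H, from -4.16 (Hba-a1) to -0.98 (Car2). In WT the signs were mixed. Hbb-bt, another haemoglobin gene, averaged 20 CPM in WT with azacitidine and 10.3 in WT with NaCl (log2 change 0.95), and Klf1 and Epor had 0.03 and 0.20.

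Across the 16 libraries, the Pearson r between log2 levels and the log2 erythroid sum was 0.74 for Gm11837 and -0.628 for 4933406J09Rik. After each group's mean was subtracted it was 0.546 for Gm11837 and -0.463 for 4933406J09Rik. These libraries share treatment groups and both genes were chosen on treatment, so the values are a description. R882H with NaCl replicates 3 and 4, singled out after their values were seen, had erythroid sums of 1670 and 1680 CPM. These lay inside the range of the treated R882H libraries, while Gm11837 was at 2.75 and 3.10 CPM, above all of those. Car2 by itself was also higher in both replicates than in every treated R882H library. Without R882H with NaCl replicates 1 and 2 and WT with azacitidine replicate 1, the log2 change of Gm11837 was -2.02 in R882H and -1.39 in WT, and that of 4933406J09Rik was 2.05 in R882H and 2.47 in WT. In bulk RNA, fewer cells of a type and less RNA per cell cannot be told apart. The part of erythroid cells in the level of either RNA was not tested.

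**Figure D3:**
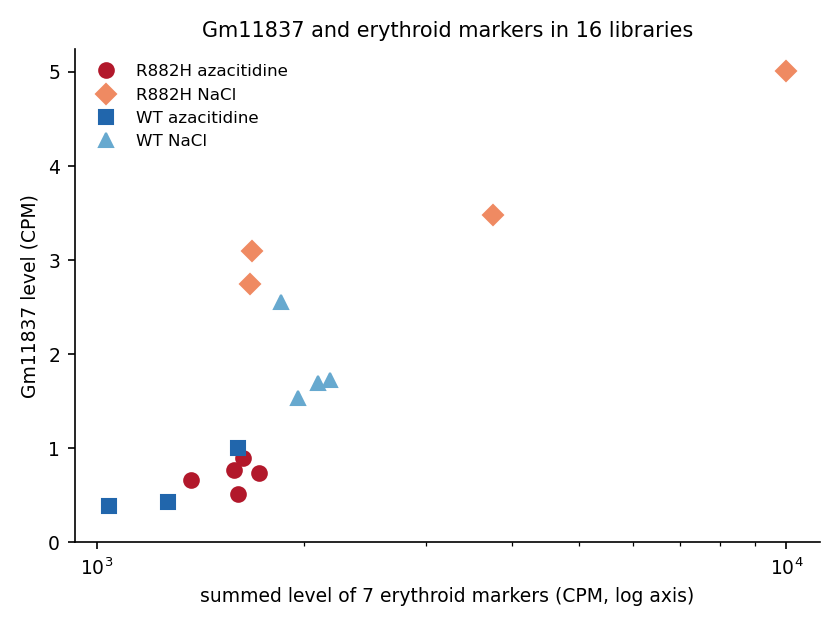
Level of Gm11837 (CPM) against the summed level of 7 erythroid markers (CPM, log axis), 1 point per library, coloured by group. Car2 had the highest mean of the 7 markers in every group and weighs most in the sum. R882H with NaCl replicates 3 and 4 have marker sums (1670 and 1680 CPM) inside the range of the R882H azacitidine libraries (1370 to 1720). Their Gm11837 levels lie above those of all treated R882H libraries, and so do their Car2 levels. In WT the marker sums of the treated libraries (1040 to 1600) lie below those of the NaCl libraries (1850 to 2180).

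Markers of cells that the sort should remove were also summed. The 8 mast cell and basophil markers summed to 95.4 to 231 CPM in R882H with azacitidine and 74.9 to 141 CPM in R882H with NaCl, and to 143 to 280 CPM in WT with azacitidine and 48.0 to 166 CPM in WT with NaCl. Tpsb2, a mast cell tryptase gene, was at 0 in every R882H with NaCl library, where Cpa3 averaged 47.5 CPM, Prss34 29.7 and Mcpt8 20.4. In R882H, Fcer1a and Ms4a2 averaged 4.34 and 5.19 CPM with azacitidine and 5.11 and 6.87 with NaCl. The other markers of this list averaged higher with azacitidine in R882H. In WT all 8 averaged higher with azacitidine, with log2 changes from 0.14 (Cma1) to 2.84 (Tpsb2). Mcpt8 averaged 51.8 CPM in WT with azacitidine and 20.2 in WT with NaCl, while Cma1 and Tpsb2 averaged at most 0.37 in WT. edgeR called none of the 8 in either genotype. The r of the sum with 4933406J09Rik was 0.517 over all libraries and -0.089 within groups. The 7 endothelial and stromal markers, at 53.8 to 152 CPM in all, had r of -0.572 with Gm11837 and 0.467 with 4933406J09Rik, and -0.601 and 0.545 within groups. This sum is mostly Pecam1, at 80.2 to 114 CPM in group means, followed by Emcn at 13.6 to 18.8. The other markers averaged at most 2.62 CPM in any group, so these r say little about them. The 8 mature neutrophil markers summed to 2.28 to 628 CPM in R882H with azacitidine and 2.61 to 147 CPM in R882H with NaCl, and to 36.4 to 319 CPM in WT with azacitidine and 14.5 to 108 CPM in WT with NaCl. Their r with Gm11837 was 0.107 over all libraries and 0.517 within groups, and with 4933406J09Rik 0.005 and 0.148. The 8 T and NK cell markers summed to 396 to 609 CPM in R882H with azacitidine and 310 to 604 CPM in R882H with NaCl, and to 449 to 898 CPM in WT with azacitidine and 336 to 704 CPM in WT with NaCl. Their r was -0.488 with Gm11837 and 0.374 with 4933406J09Rik, and -0.333 and 0.342 within groups. Nkg7 had the highest mean of the 8 in every group, at 294 to 582 CPM, so this sum weighs it most. In R882H, Cd3d, Cd3e, Cd3g, Trac, Cd4 and Cd8a averaged lower with azacitidine, and Lck and Nkg7 higher. Cd3e averaged 0.568 CPM in R882H with azacitidine and 6.92 in R882H with NaCl. In WT the signs were mixed, and edgeR called none of the tested markers in either genotype. For B cell, plasma cell, and macrophage and dendritic cell markers, r over all libraries lay between -0.371 and 0.313, and within groups between -0.26 and 0.392. The ranges of these sums, and of the T and NK cell sum, overlapped between treatments in each genotype. The part of these cells in the levels of either RNA was not tested.

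The protein-coding genes around Gm11837 showed no called change. Necab1, its overlapping partner, had 0 to 2 counts in every library and was not tested, so Gm11837 RNA was counted in cells with almost no count for the partner. Calb1, a calbindin gene further along the chromosome, had 0 to 2 counts too. Pip4p2, a phosphoinositide phosphatase gene that ends 14731 bases upstream, averaged 35.9 ± 1.15 CPM (SD, n = 5) in R882H with azacitidine and 41.7 ± 4.37 (n = 4) in R882H with NaCl, a log2 change of -0.21 (SE 0.11, edgeR adjusted p = 0.764). All its treated R882H libraries lay below all controls, by a change that compares with -2.32 for Gm11837. Such a separation was shown by 0.485% of tested genes. The WT change of Pip4p2 was -0.10 (SE 0.13, edgeR adjusted p = 0.944).

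Otud6b, a deubiquitinase gene 103320 bases away, had a log2 change of -0.24 (SE 0.15) in R882H and -0.01 (SE 0.18) in WT. Tmem64, a transmembrane protein gene 312800 bases away on the other side, had -0.37 (SE 0.20) in R882H and -0.05 (SE 0.23) in WT. Neither was called by edgeR in either genotype, with adjusted p of 0.765 to 1. The levels of these genes, 35.9 to 67.3 CPM in group means, lay far above the level of Gm11837 on the CPM scale, which is not corrected for length.

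Bcl2l14, the partner of 4933406J09Rik, was higher in every treated R882H library than in every R882H control, a pattern that 1.09% of tested genes showed. It stood at 11.4, 11.7, 13.4, 10.3 and 9.36 CPM in R882H with azacitidine, against 3.22, 3.36, 5.98 and 7.89 CPM in R882H with NaCl. In WT cells it stood at 8.25, 10 and 10.8 CPM with azacitidine, against 7.35, 5.76, 10 and 9.34 CPM with NaCl. The R882H groups did not overlap and the WT groups did.

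The log2 change of Bcl2l14 was 1.13 (SE 0.27) in R882H, with an edgeR adjusted p of 0.388, and 0.26 (SE 0.30) in WT, with an edgeR adjusted p of 0.936. Neither was called by edgeR, while DESeq2 called the R882H change (adjusted p = 0.00841, in a range of 0.00841 to 0.873 over all alternatives). The interaction was 0.88 (SE 0.40, interval 0.09 to 1.66) with an unadjusted p of 0.0443 in the edgeR fit and an edgeR adjusted p of 0.763, so a difference between genotypes was not called. R882H with NaCl replicates 1 and 2 were the lowest of all libraries. Without them and WT with azacitidine replicate 1 the R882H change was 0.70, among libraries numbered 1 and 2 it was 1.81, and among those numbered 3 or more it was 0.65.

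The count of the antisense RNA was also set against that of its partner. The count of 4933406J09Rik was 12.1 to 26.4% of that of Bcl2l14 in R882H with azacitidine and 7.60 to 16.5% in R882H with NaCl. It was 17.1 to 40.4% in WT with azacitidine and 3.3 to 8.33% in WT with NaCl. The WT ranges did not overlap, and in R882H 1 control, replicate 1, lay within the treated range. Across the 16 libraries the r between their log2 levels was 0.646, and 0.234 after the group means were subtracted. Because the kit does not mark strand and the counting setting is not given, reads from the 577 shared bases cannot be assigned to a strand, and their part in either count was not tested.

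**Figure D4:**
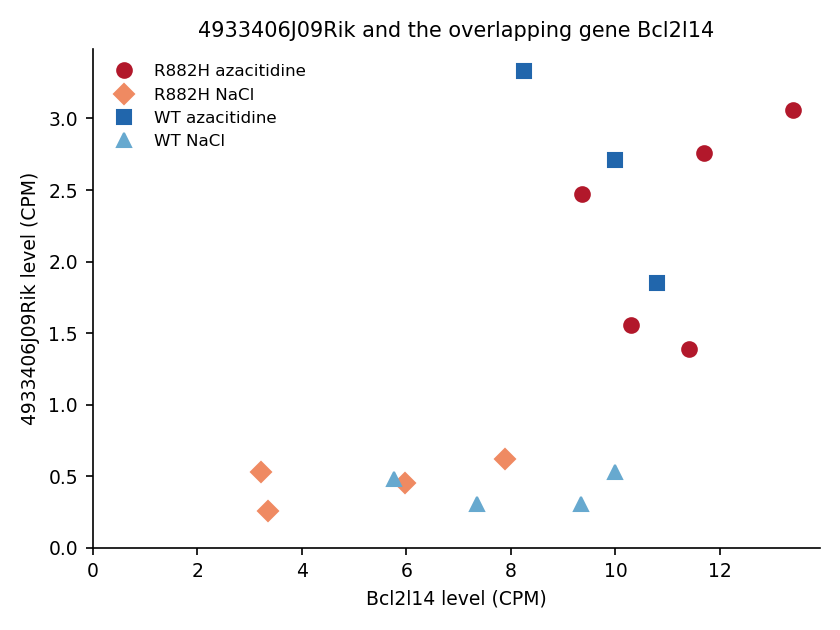
Level of 4933406J09Rik against that of the overlapping gene Bcl2l14 (both CPM), 1 point per library, coloured by group. At Bcl2l14 levels of 8 to 11 CPM, treated libraries hold 1.56 to 3.33 CPM of 4933406J09Rik, and the NaCl libraries, both WT, hold 0.304 and 0.532.

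The other tested neighbours of 4933406J09Rik were Etv6, Lrp6 and Mansc1. Etv6, a transcription factor gene needed by marrow stem cells, ends 38792 bases from it and had log2 changes of 0.21 (SE 0.27) in R882H and 0.09 (SE 0.30) in WT. Lrp6, a Wnt co-receptor gene, had -0.18 (SE 0.17) in R882H and 0.32 (SE 0.19) in WT. Mansc1, a membrane protein gene, had 0.22 (SE 0.29) in R882H and -0.42 (SE 0.33) in WT. edgeR called none of them in either genotype, with adjusted p of 0.853 to 0.98. Kap was not analysed here.

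**Figure D5:**
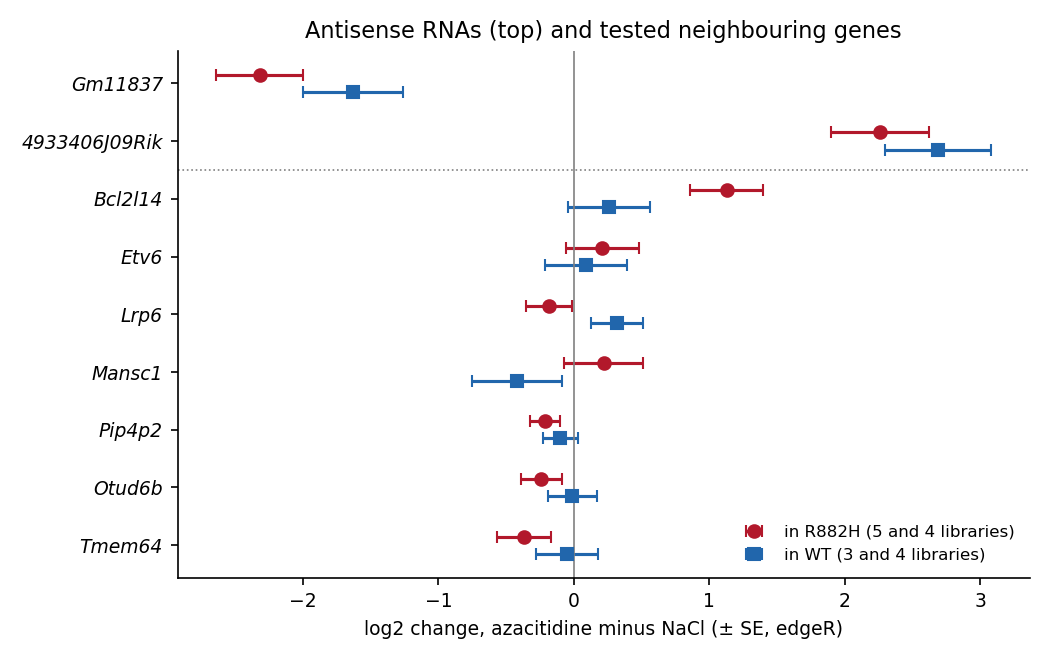
Log2 change with azacitidine (± SE, edgeR, azacitidine minus NaCl) of both antisense RNAs and of the 7 tested neighbouring genes, in R882H (red circles) and WT (blue squares). The antisense RNAs lie at -2.32 and -1.63 and at 2.26 and 2.69, and the neighbours lie between -0.42 and 1.13.

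Genes whose log2 level followed either RNA most closely over the 16 libraries were ranked by Pearson r. For Gm11837 the highest were Tceal3 (0.89), Sec14l2 (0.876), Sqor (0.845), Cd82 (0.843) and Cd248 (0.842), and the lowest were Tec (-0.937), Lat2 (-0.921) and Bpifc (-0.897). For 4933406J09Rik the highest were Bcas1 (0.936), Mgst2 (0.922), Cyp27a1 (0.894), Rapgef3 (0.875) and Lat2 (0.872), and the lowest were Gm11837 itself (-0.897), Sec14l2 (-0.822) and Dsc2 (-0.776). Lat2, an adaptor gene of immune receptor signalling, and Sec14l2, a lipid-binding protein gene, stood in both rankings with opposite signs. None of these genes shares a chromosome with the RNA that it follows.

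That likeness was weaker within groups. With group means subtracted, the r between both antisense RNAs was -0.607 instead of -0.897. The genes closest to Gm11837 were then Agpat4 (0.807), Klf4 (0.793) and 4930558K02Rik (0.774), and those closest to 4933406J09Rik were Tmprss7 (0.861), Ighv1-62-1 (0.859) and Gm13270 (0.819). Klf4, a transcription factor gene, lies on chromosome 4 like Gm11837. None of these 6 genes was among those closest over all libraries. Both RNAs come from the same 16 libraries, so these values share depth and composition.

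Both members were set beside the class of non-coding genes that overlap a protein-coding gene in antisense. GENCODE annotates 5144 non-coding genes over a protein-coding gene on the opposite strand, of which 3062 had a row in the files and 1204 were tested. In R882H, 46% of these had a positive log2 change with azacitidine and the median was -0.04, beside 44.3% and -0.04 over all tested genes. In WT, 70.9% had a positive change and the median was 0.28, beside 51.8% and 0.01. Without WT with azacitidine replicate 1 the WT median was 0.09. Over all alternatives the class median ran from -0.12 to 0.14 in R882H, so its sign there was not fixed, and from 0.08 to 0.39 in WT. Apart from Gm11837 in R882H, edgeR called no gene of the class in either genotype.

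The changes of Gm11837 (-2.32 in R882H, -1.63 in WT) and of 4933406J09Rik (2.26 in R882H, 2.69 in WT) stand beside these medians as chosen values. At an unadjusted p under 0.05 the class had 23 higher and 47 lower in R882H, and 71 higher and 5 lower in WT, both members included. All 18341 tested genes had 410 higher and 817 lower in R882H, and 732 higher and 372 lower in WT. Of 31 antisense RNAs listed by name, 21 had a row and 16 were tested, and edgeR called none in either genotype. Their median was -0.28 in R882H and 0.41 in WT. Kcnq1ot1, the imprinted antisense RNA of the Kcnq1 locus, had log2 changes of -0.33 (SE 0.38) in R882H and 0.72 (SE 0.43) in WT. Airn, that of the Igf2r locus, had -1.64 (SE 0.78) in R882H and -1.76 (SE 0.96) in WT at a mean of 0.209 CPM.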

How the data were processed

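RNA of sorted LSK cells was made into cDNA and amplified with a low-input kit (SMARTer Ultra Low), which does not mark strand, per the labels' protocols. Per the submitters' processing notes, HISAT2 2.0.5, featureCounts 1.6.2 and edgeR 3.26.6 were used with GRCm38; strand and multi-mapping settings are not given in the sources used here. The deposited counts are raw, per gene and per repeat family. The deposited FPKM files hold these counts divided by length and by 1 constant per library (relative spread 1e-14). The length column, another deposited value, gives bases per feature, and equalled the GENCODE M21 exon length in 94.83% of gene rows.

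All 16 libraries were fitted in edgeR 4.0.16 (R 4.3.3) with 1 coefficient per group, TMM scaling and filterByExpr, which left 18341 genes (common dispersion 0.166). The quasi-likelihood test was adjusted by Benjamini-Hochberg over all of them, with calls made at an adjusted p under 0.05. Correlations used log2 CPM with a prior count of 2. SE and intervals are from this fit, whose code was tested on simulated data. DESeq2 1.42.0, limma-voom 3.58.1, surrogate variables (sva 3.50.0), other scalings and filters, left-out libraries and sets of replicate numbers were alternatives. Sequences and motifs were read with Python. The lowest chi-square per gene between libraries of a group was 38.4, so none was a copy. Amplified reads carry no molecular identifiers.

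The members, lists and tests were chosen with earlier results of these data known. Named genes were the members, overlapping and nearest protein-coding genes (2 on each side), the 5 highest and 3 lowest correlates, the 3 highest within groups, and Dnmt3a, Dnmt3b, Dnmt1 and Uhrf1. For the last 4 genes the log2 azacitidine changes ran from -0.31 to 0.34 and edgeR called none. Airn and Kcnq1ot1 were picked from the antisense list by their known roles, and single markers after their values were seen. A marker of the erythroid list is not reported here.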

Additional observations from a re-analysis of the deposited data

Results flagged for a closer look

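In 39 sets of 4 or 5 libraries, each holding an antisense RNA, a tested neighbour or a DNA methylation gene in 1 group, 2 had a library whose gap to the others exceeded Dixon's critical value, which chance gives in about 1 of 20 sets. Otud6b, the deubiquitinase gene near Gm11837, stood at 43.1 CPM in R882H with azacitidine replicate 2, below the other libraries of its group. Tmem64, on the other side of Gm11837, stood at 103 CPM in R882H with NaCl replicate 2, above the other libraries of its group. Neither antisense RNA had such a library in the groups of 4 or 5. WT with azacitidine, which has 3 libraries, was not screened.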

How the results depend on the processing

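Over 30 alternatives (29 for contrasts of all 4 groups, which a fit to 2 groups cannot give), the azacitidine change of Gm11837 stayed negative, at -2.42 to -2.02 in R882H and -2.20 to -1.04 in WT, and that of 4933406J09Rik stayed positive, at 2.05 to 2.43 and 2.13 to 2.92. The adjusted p of Gm11837 in R882H ran from 1.44e-09 with DESeq2 to 0.275 with the replicate block. In WT, DESeq2 alone gave Gm11837 an adjusted p under 0.05. For 4933406J09Rik in R882H it ran from 2.43e-06 with DESeq2 to 0.57 with edgeR fitted to the 2 R882H groups. For 4933406J09Rik in WT it ran from 3.08e-07 with DESeq2 to 0.842 with edgeR on replicate numbers 1 and 2. The sets of replicate numbers were chosen after seeing the data. With numbers 1 and 2 the WT change of Gm11837 was -2.08, and with 3 or more -1.04, where that of 4933406J09Rik was 2.13. With single libraries left out, the WT change of Gm11837 ran from -2.20 to -1.39. The difference R882H minus WT with azacitidine turned to -0.64 for Gm11837 and to 0.35 for 4933406J09Rik with numbers 3 or more, and to 0.01 for 4933406J09Rik with either set of doubted libraries omitted (R882H NaCl replicate 1 and WT azacitidine replicate 1, with or without R882H NaCl replicate 2). The cause was not tested.

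Same-numbered libraries had correlations of deviations from -0.119 to 0.345, so the numbers were not taken as pairs. With the replicate block the change of Gm11837 was -2.32 in R882H and -1.59 in WT, and that of 4933406J09Rik 2.18 and 2.69.

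Small changes of neighbours turned sign. In WT, Otud6b reached 0.01 with upper quartile scaling, with a minimum of 1 CPM in 3 libraries and with either set of doubted libraries omitted, and 0.13 with numbers 1 and 2, where Tmem64 reached 0.07. Etv6 in WT reached -0.08 with either set omitted and -0.31 with numbers 3 or more. With R882H NaCl replicates 1 and 2 and WT azacitidine replicate 1 omitted, R882H changes of Etv6 and Mansc1 were -0.25 and -0.27, and with numbers 3 or more -0.19 and -0.28, with Lrp6 at 0.02. With single libraries left out the WT ranges were -0.09 to 0.04 (Otud6b), -0.21 to 0.04 (Tmem64) and -0.07 to 0.23 (Etv6), and the R882H ranges 0 to 0.50 (Etv6) and -0.02 to 0.43 (Mansc1). DESeq2 called 1 neighbour in R882H, Bcl2l14, and 1 further gene of the antisense class in each genotype, while the class had 1 call in R882H with numbers 1 and 2 and 2 with numbers 3 or more.

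Counts of 10 to 195 per library limit both RNAs, and WT with azacitidine has 3 libraries.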
